A study of Mus musculus with 9 samples.

Results

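The liver carries bile acids through a set of membrane transporters, and 8 of their genes are described here across 3 treatments of db/db mice: Slc10a1, Slco1b2, Slco1a4, Abcb11, Abcc2, Abcc3, Abcc4 and Slc51b. They were chosen by gene symbol and are 8 of the 28517 genes in the deposited expression table. All 8 passed the filter on low counts, which left 18142 genes for testing. Every group, the controls included, consists of db/db mice, whose leptin receptor is defective and which develop obesity with diabetes. They were given PBS (the vehicle group), FGF19WT or FGF19ΔKLB over 12 weeks, and total RNA of the liver was sequenced in 3 libraries per group. FGF19 is an intestinal hormone that signals to hepatocytes through FGFR4 with β-klotho, the product of Klb. The labels name FGF19ΔKLB without giving its sequence change, and they state no age, sex or dose, nor whether each library comes from its own animal. The p-values therefore measure the spread between these libraries, which may in part be technical.

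Hepatocytes make bile acids from cholesterol and secrete them into the bile canaliculus, from where they reach the intestine, are taken up again and return with portal blood. Uptake from blood at the basolateral membrane runs through the sodium-dependent carrier NTCP (Slc10a1) and through sodium-independent organic anion carriers such as OATP1B2 (Slco1b2) and OATP1A4 (Slco1a4). Secretion into bile runs through the bile salt export pump BSEP (Abcb11) and through MRP2 (Abcc2), which also moves conjugated bilirubin and glutathione conjugates. MRP3 (Abcc3), MRP4 (Abcc4) and the heteromer OSTα-OSTβ, whose β subunit is encoded by Slc51b, export bile acids back into blood, and in rodent liver they are known as routes used in cholestasis. The bile acid receptor FXR (Nr1h4) is known to drive Abcb11 and Slc51b and binds DNA at inverted repeats spaced by 1 base.

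Sequences before the start sites were searched because Abcb11 is a known FXR gene and because Abcc4 had the largest fitted difference of the 8 genes. RefSeq promoters on GRCm38.p6 were found for 7 of the 8 genes, 9 start sites in all, and Abcc3 was not matched. The 250 bases before each start were searched on both strands. The exact repeat AGGTCANTGACCT was found in 0.00609% of 32851 promoters and in none of these. The same repeat with 1 free letter on each side of the spacer was found in 0.618% of promoters and in 2 of the 7 genes, Abcb11 and Slco1b2. The single unit AGGTCA, which can lie inside such a repeat, was found in 14.0% of promoters and in 5 of the 7 genes, and the antioxidant response element core TGACNNNGC in 10.2% of promoters and in 2 of the 7 genes, Abcc2 and Abcc4. Shares are per promoter and these counts per gene, and Slc10a1 and Abcc4 had 2 start sites each. In Slc10a1 AGGTCA lay only before the second, 626 bases inside the annotated gene. Abcc4 had a core before each, the second start lying 29288 bases inside. The Abcc2 start lay 116 bases inside its annotated gene, and its AGGTCA and core both fell within that gene. In the sequences below, capitals mark the repeats in Abcb11 (starting 94 and 63 bases before the start site) and Slco1b2 (88 bases before it) and the antioxidant element core in Abcc4 (25 bases before it). A match describes letters only.
Abcb11, chr2:69342617-69342866, minus strand: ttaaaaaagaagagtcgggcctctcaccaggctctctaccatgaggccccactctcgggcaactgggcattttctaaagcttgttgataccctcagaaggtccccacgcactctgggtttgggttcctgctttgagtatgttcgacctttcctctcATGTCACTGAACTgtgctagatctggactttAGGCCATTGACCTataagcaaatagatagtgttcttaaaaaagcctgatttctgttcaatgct
Slco1b2, chr6:141629268-141629517, plus strand: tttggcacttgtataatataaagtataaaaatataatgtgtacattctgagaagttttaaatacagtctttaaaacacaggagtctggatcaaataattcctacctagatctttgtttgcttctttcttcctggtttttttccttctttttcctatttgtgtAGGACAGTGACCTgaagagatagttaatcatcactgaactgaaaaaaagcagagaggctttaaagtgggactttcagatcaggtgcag
Abcc4, chr14:118706220-118706469, minus strand: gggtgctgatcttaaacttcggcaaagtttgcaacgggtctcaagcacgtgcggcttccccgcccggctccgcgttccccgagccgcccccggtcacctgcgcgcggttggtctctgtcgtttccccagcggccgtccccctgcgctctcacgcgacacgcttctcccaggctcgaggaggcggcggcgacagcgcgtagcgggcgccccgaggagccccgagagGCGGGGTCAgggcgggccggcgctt

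Count totals were 65.1 to 73.3 M per library. Between counts of 8 and 40, multiples of 4 were 1.51 to 1.65 times as frequent as their neighbours. If 4 counts stand for 1 read pair, which was assumed, the totals are about 16.3 to 18.3 M read pairs. FGF19WT libraries 2 and 3 stood apart from the other 7 on the first principal component, which held 48.9% of the variance, at 130 and 170 against −64.0 to −7.85. In both, 37.4% of all tested genes lay outside the range of the other 7 libraries, and so did 4 of the 8 transporter genes: Abcc2 and Abcc4 above it, Slc10a1 and Abcc3 below it. Hepatocyte markers were present throughout, with albumin (Alb) at 8.60% to 21.1% of all counts. They summed to 128849 and 139999 CPM in FGF19WT libraries 2 and 3 against 138762 to 345365 CPM in the other 7. Their mean log2 CPM was 11.25 and 11.24 against 12.16 to 12.78. Stellate cell markers summed to 278 and 233 CPM, within the 169 to 496 CPM of the other 7, with a mean log2 CPM of 2.561 and 0.0549 against 2.562 to 4.13. The 16 genes of hepatocytes around the central vein summed to 36834 and 36086 CPM in those 2 libraries against 2655 to 10423 CPM in the other 7. The 12 genes of hepatocytes around the portal tract summed to 275 and 307 CPM against 5543 to 8145 CPM. Kupffer cell and macrophage markers (14 genes) summed to 154 and 56.8 CPM against 278 to 498, and sinusoidal endothelial markers (12 genes) to 71.1 and 91.5 against 111 to 243. Cholangiocyte markers summed to 113 and 70.4 CPM against 80.3 to 132 in the other 7, 1 inside and 1 below that range. On the mean log2 CPM of this list both lay below, at 0.773 and 0.0877 against 1.01 to 1.76. For FGF19WT against vehicle 5 of its 12 tested genes were fitted above 0 and 7 below. Of the cholangiocyte keratins, chosen after their values were seen, Krt7 was at 0 in both. Krt19 was at 0.925 and 2.61 CPM, within the 0.543 to 4.45 CPM of the other 7. B and plasma cell markers (9 genes) summed to 6.08 and 4.06 CPM against 30.7 to 246, and T and NK cell markers (12 genes) to 2.07 and 2.93 against 3.04 to 18.9. No listed marker in the table was at 0 in all 9 libraries. Pancreas and gut markers, 4 genes tested, summed to 548 to 4224 CPM and were highest in FGF19ΔKLB library 3. In vehicle this sum was mostly Apoa4 (mean 1376 CPM) and Fabp2 (138 CPM), with Cela1 at 7.21 and Vil1 at 0.0902 CPM. Whether tissue other than liver was present was not tested. Fitted differences of the 8 genes with FGF19WT are given with and without libraries 2 and 3, in the latter case assuming that library 1 varies like the other groups, and the part of these cell and zone markers in them was not tested. In bulk liver, fewer cells of a type and less RNA per cell cannot be told apart.

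Levels compared between genes are given in FPKM, which divides by transcript length and by library size. In the 3 vehicle libraries Slc10a1 was the highest of the 8 at 317 ± 32.3 FPKM (SD, n = 3), followed by Slco1b2 at 133 ± 22.7, Abcc2 at 57.7 ± 8.05, Abcb11 at 52.0 ± 17.4, Abcc3 at 33.7 ± 8.31, Slco1a4 at 12.5 ± 1.42, Slc51b at 1.44 ± 0.564 and Abcc4 at 0.613 ± 0.0786 FPKM. Neighbours in this order had separate ranges except Abcc2 with Abcb11 and Abcb11 with Abcc3. The uptake carriers Slc10a1 and Slco1b2 led, the uptake carrier Slco1a4 came after Abcc2, Abcb11 and Abcc3, and 6 of the 8 genes lay at a percentile of at least 85.2 among tested genes in every vehicle library, while Slc51b and Abcc4 lay at percentiles of 32.9 to 56.6.

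The order in FGF19ΔKLB libraries again had Slc10a1 first at 418 ± 47.4 FPKM (SD, n = 3) and Slco1b2 next at 74.3 ± 17.8. Abcc2 followed at 46.8 ± 8.47, Abcb11 at 35.98 ± 9.09, Slco1a4 at 21.4 ± 4.48 and Abcc3 at 19.8 ± 4.11 FPKM. Each of these 4 overlapped its neighbour, and Abcc2 overlapped Slco1b2. Abcc4 at 0.633 ± 0.269 and Slc51b at 0.617 ± 0.374 FPKM were last and overlapped too. The ratio of Slc10a1 to Slco1b2 FPKM was 1.85 to 3.20 in vehicle, 4.20 to 8.32 with FGF19ΔKLB and 3.24 in FGF19WT library 1.

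FGF19WT libraries 2 and 3 had another order. Slco1b2 led at 242 and 118 FPKM and Abcc2 came next at 100.04 and 114 FPKM, while Slc10a1 stood at 79.4 and 69.4 FPKM, a ratio to Slco1b2 of 0.328 and 0.589. Abcc4 stood at 17.5 and 21.9 FPKM, behind Abcb11 and above Slco1a4 and Abcc3, the last at 2.07 and 0.918. Summed over the 3 uptake carriers the level was 329 and 207 FPKM against 452 to 551 in the other 7 libraries. Summed over Abcb11 and Abcc2 it was 151 and 191 FPKM against 70.6 to 117. These sums lack the TMM scaling used for CPM below, whose factors ran from 0.848 to 1.16 over the libraries.

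**Figure D1:**
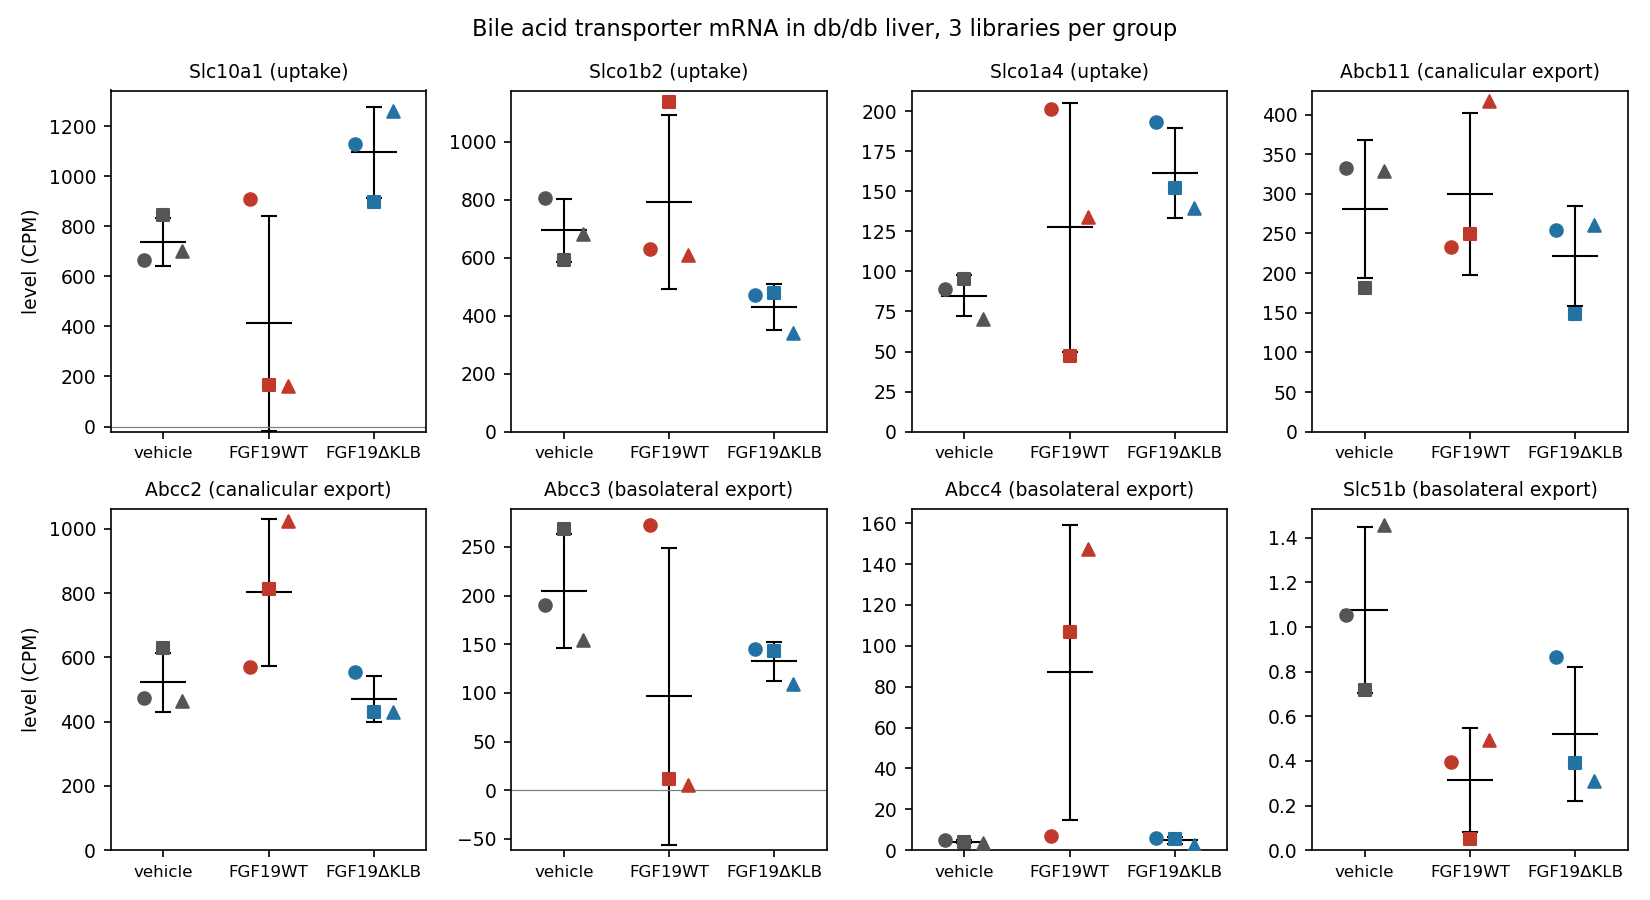
Levels of the 8 transporter genes in CPM (counts scaled by library size, linear axis) by treatment group, 1 point per library (circle, square and triangle for libraries 1, 2 and 3), with the group mean as a line and ± 1 SD as whiskers, which run below 0 for Slc10a1 and Abcc3. FGF19WT libraries 2 and 3 sit apart from library 1 in Slc10a1, Abcc3 and Abcc4, while the 3 FGF19ΔKLB libraries lie above all vehicle libraries in Slc10a1 and Slco1a4.

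The first uptake carrier, Slc10a1, lies on chromosome 12 from 80953183 to 80968705 on GRCm38, minus strand. Its level, now in CPM scaled by TMM so that libraries can be compared, was 665, 845 and 702 in vehicle libraries, 909, 166 and 161 in FGF19WT libraries and 1127, 898 and 1259 in FGF19ΔKLB libraries. All FGF19ΔKLB libraries were above all vehicle libraries, whereas the FGF19WT group held 1 library above them and 2 far below. The edgeR model over all 9 libraries gave a log2 fold change of −0.84 (95% interval −2.26 to 0.58, adjusted p = 0.479) for FGF19WT against vehicle. It gave 0.57 (−0.84 to 1.98, adjusted p = 0.882) for FGF19ΔKLB against vehicle and 1.41 (−0.03 to 2.84, adjusted p = 0.409) for FGF19ΔKLB against FGF19WT. Without FGF19WT libraries 2 and 3 the first value turned to 0.30 (adjusted p = 0.888) and the last was 0.26 (adjusted p = 0.935). Without library 1, where 27.4% and 20.2% of all genes were called, they were −2.18 (adjusted p = 0.000253) and 2.75 (adjusted p = 9.90e-05).

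Slco1b2, on chromosome 6 from 141629518 to 141686646, takes up bilirubin and drugs besides bile acids. It measured 807, 592 and 683 CPM in vehicle libraries, 629, 1137 and 611 CPM with FGF19WT and 472, 479 and 339 CPM with FGF19ΔKLB. The 3 FGF19ΔKLB libraries were the 3 lowest of the 9, and FGF19WT library 2 was the highest. Against vehicle, the log2 fold change with FGF19ΔKLB was −0.69 (95% interval −1.36 to −0.02, unadjusted p = 0.0441, adjusted p = 0.582 in edgeR). Against FGF19WT it was −0.88 (−1.55 to −0.21, unadjusted p = 0.0157, adjusted p = 0.299), and FGF19WT against vehicle gave 0.19 (−0.47 to 0.85, adjusted p = 0.740). Without FGF19WT libraries 2 and 3 the last 2 values were −0.55 (adjusted p = 0.868) and −0.14 (adjusted p = 0.971).

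Slco1a4, on chromosome 6 from 141805440 to 141856171, minus strand, was the uptake carrier with the lowest level. It measured 89.1, 95.1 and 70.3 CPM in vehicle libraries, 202, 47.0 and 134 CPM with FGF19WT and 193, 152 and 140 CPM with FGF19ΔKLB. Every FGF19ΔKLB library lay above every vehicle library, and the FGF19WT libraries spanned both groups, with library 2 the lowest and library 1 the highest of all 9. Over all 9 libraries FGF19ΔKLB against vehicle gave a log2 fold change of 0.93 (95% interval −0.08 to 1.93, unadjusted p = 0.0658, adjusted p = 0.637). With only the 6 libraries of these 2 groups in the model, whose spread then leaves out FGF19WT, the value was 0.93 (SE 0.17, 0.52 to 1.33, adjusted p = 0.0496), so that Slco1a4 rose 1.90-fold, with 3 of 3 libraries above every vehicle library, and it was 0.93 (adjusted p = 0.0467) without FGF19WT libraries 2 and 3. Leaving out any 1 of the 6 libraries ended this call, with adjusted p between 0.0710 and 0.153. In FGF19WT against vehicle, where the controls are the same, Slco1a4 gave 0.59 (−0.41 to 1.59, adjusted p = 0.482) over all libraries and 1.25 (adjusted p = 0.149) with library 1 alone. FGF19ΔKLB against FGF19WT gave 0.34 (−0.66 to 1.34, adjusted p = 0.767), which turned to −0.32 (adjusted p = 0.926) without libraries 2 and 3. Slco1a4 shares 1.56% of its 50-base words with Slco1a5 and 1.31% with Slco1a1. These relatives stood at no more than 0.0587 and 8.49 CPM.

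Bile salt export pump Abcb11, on chromosome 2 from 69238282 to 69342614, minus strand, has 2 of the 3 inexact inverted repeats shown above before its start. It measured 333, 181 and 329 CPM in vehicle libraries, 233, 250 and 417 CPM with FGF19WT and 255, 148 and 261 CPM with FGF19ΔKLB. All 3 groups overlapped, with the lowest values in vehicle library 2 and FGF19ΔKLB library 2. The log2 fold change was 0.09 (95% interval −0.70 to 0.88, adjusted p = 0.901) for FGF19WT and −0.35 (−1.14 to 0.45, adjusted p = 0.866) for FGF19ΔKLB, each against vehicle in edgeR. Both intervals include 0 and are too wide to show that the levels were equal. FGF19ΔKLB against FGF19WT gave −0.44 (−1.23 to 0.35, adjusted p = 0.627). Without FGF19WT libraries 2 and 3 the value for FGF19WT against vehicle turned to −0.27 (adjusted p = 0.965) and that for FGF19ΔKLB against FGF19WT was −0.08 (adjusted p = 0.997). The antisense gene Gm13613 and the pseudogene Gm13614 overlap Abcb11 and reached at most 0.319 CPM and 0.0439 CPM.

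Abcc2, on chromosome 19 from 43782192 to 43840740, measured 474, 628 and 464 CPM in vehicle libraries, 570, 813 and 1025 CPM with FGF19WT and 554, 432 and 429 CPM with FGF19ΔKLB. FGF19WT libraries 2 and 3 were the highest of the 9, and library 1 lay within the vehicle range. FGF19WT against vehicle gave a log2 fold change of 0.62 (95% interval 0.03 to 1.21, unadjusted p = 0.0422, adjusted p = 0.247), and 0.13 (adjusted p = 0.973) without libraries 2 and 3. FGF19ΔKLB against FGF19WT gave −0.77 (−1.36 to −0.17, adjusted p = 0.306) with no overlap between the groups, and −0.28 (−0.83 to 0.28, adjusted p = 0.934) without FGF19WT libraries 2 and 3. Against vehicle it gave −0.15 (−0.74 to 0.44, adjusted p = 0.934).

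**Figure D2:**
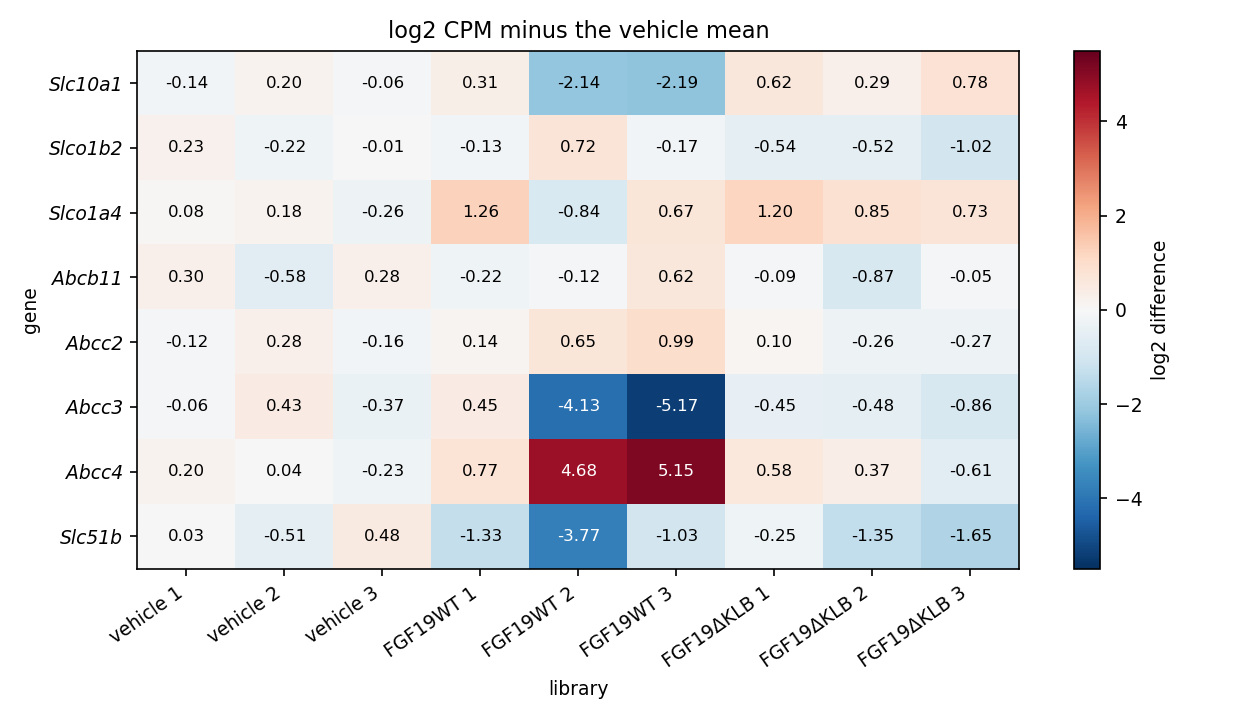
Difference of each library from the vehicle mean on the log2 CPM scale, genes in rows and libraries in columns, with the value in each cell and red above and blue below vehicle. The darkest cells are Abcc3 and Abcc4 in FGF19WT libraries 2 and 3, at −4.13 and −5.17 and at 4.68 and 5.15.

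The basolateral exporters Abcc3 and Abcc4 had the widest spread, and FGF19WT libraries 2 and 3 lay on opposite sides of the other 7 for them. Abcc3, on chromosome 11 from 94343295 to 94392997, minus strand, encodes MRP3, which prefers glucuronide conjugates. It measured 190, 269 and 154 CPM in vehicle libraries, 273, 11.3 and 5.51 CPM with FGF19WT and 146, 143 and 109 CPM with FGF19ΔKLB. FGF19WT library 1 was the highest of all 9, libraries 2 and 3 were the 2 lowest, and the FGF19ΔKLB libraries all lay under the lowest vehicle library. FGF19WT against vehicle gave a log2 fold change of −1.08 (95% interval −3.74 to 1.58, adjusted p = 0.627). FGF19ΔKLB against vehicle gave −0.63 (−3.26 to 2.01, adjusted p = 0.939) over 9 libraries and −0.63 (−1.15 to −0.11, unadjusted p = 0.0247, adjusted p = 0.218) over the 6 of those groups. Without FGF19WT libraries 2 and 3 the first value turned to 0.42 (adjusted p = 0.874). FGF19ΔKLB against FGF19WT gave 0.46 (−2.18 to 3.09, adjusted p = 0.891), which turned to −1.04 (−1.72 to −0.37, adjusted p = 0.589) without them.

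Abcc4, on chromosome 14 from 118482692 to 118706219, minus strand, encodes MRP4, which exports bile acids together with glutathione and also carries cyclic nucleotides. It measured 4.74, 4.23 and 3.51 CPM in vehicle libraries, 7.05, 107 and 147 CPM with FGF19WT and 6.17, 5.35 and 2.69 CPM with FGF19ΔKLB. The 3 FGF19WT libraries were the 3 highest, with library 1 at 1.69 times and libraries 2 and 3 at 25.7 and 35.4 times the vehicle mean. FGF19WT against vehicle gave a log2 fold change of 4.39 (SE 0.93, 95% interval 2.27 to 6.51, unadjusted p = 0.00125), but its adjusted p of 0.125 in edgeR did not pass 0.05. The DESeq2 Wald test on the same libraries called it (4.39, adjusted p = 4.35e-06), beside 9.61% of all genes. Without FGF19WT library 1, edgeR kept only the 2 FGF19WT libraries that stood apart. It then called Abcc4 (4.92, adjusted p = 7.73e-05) beside 27.4% of all genes. Without libraries 2 and 3 the value was 0.76. FGF19ΔKLB against FGF19WT gave −4.20 (−6.30 to −2.10, adjusted p = 0.237), and −0.58 (−1.57 to 0.42, adjusted p = 0.926) without FGF19WT libraries 2 and 3. Against vehicle it gave 0.19 (−1.68 to 2.06, adjusted p = 0.976). The microRNA gene Mir6391 lies within Abcc4 on the same strand and had at most 2 counts.

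The order of the 2 exporters by level was inverted in 2 libraries. The ratio of Abcc3 to Abcc4 FPKM was 45.2, 71.2 and 49.5 in vehicle libraries, 26.5, 30.0 and 46.0 with FGF19ΔKLB and 43.4 in FGF19WT library 1. It was 0.118 and 0.0419 in FGF19WT libraries 2 and 3. Abcc4 made up 1.38% to 3.63% of the summed FPKM of this pair in 7 libraries and 89.4% and 96.0% in these 2. The sum itself, without TMM scaling, was 19.6 and 22.8 FPKM there, within the 15.3 to 43.6 FPKM of the other 7.

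**Figure D3:**
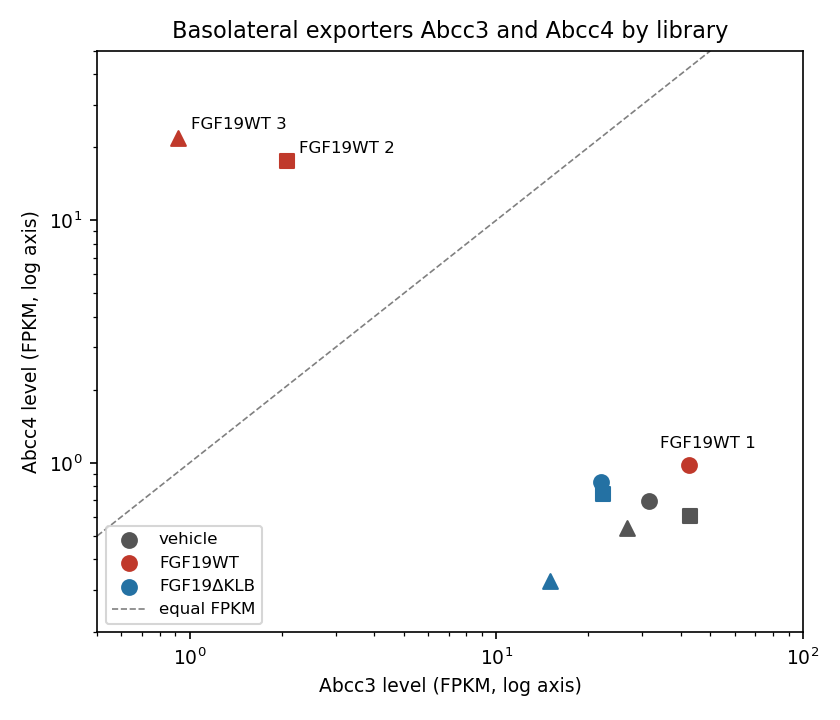
Abcc4 against Abcc3 level in FPKM, both axes logarithmic, 1 point per library (circle, square and triangle for libraries 1, 2 and 3), with the dashed line at equal levels. FGF19WT libraries 2 and 3 lie above the line, with ratios of Abcc3 to Abcc4 of 0.118 and 0.0419, and the other 7 lie below it with ratios of 26.5 to 71.2.

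Slc51b, on chromosome 9 from 65412714 to 65422955, minus strand, had the fewest counts of the 8 genes. Its product is the β subunit that the OSTα-OSTβ carrier needs to reach the membrane. It measured 1.05, 0.717 and 1.46 CPM in vehicle libraries, 0.396, 0.0494 and 0.493 CPM with FGF19WT and 0.865, 0.389 and 0.311 CPM with FGF19ΔKLB. These levels rest on 79, 49 and 114 counts in vehicle, 27, 4 and 34 with FGF19WT and 59, 26 and 19 with FGF19ΔKLB. If 4 counts stand for 1 read pair, that is about 1 to 28.5 read pairs per library. All FGF19WT libraries lay below all vehicle libraries, at a log2 fold change of −1.78 (95% interval −3.57 to −0.0011, unadjusted p = 0.0499, adjusted p = 0.266), and −1.44 (−3.24 to 0.36, adjusted p = 0.811) without libraries 2 and 3. FGF19ΔKLB against FGF19WT gave 0.74 (−1.02 to 2.503, adjusted p = 0.712), and 0.40 (adjusted p = 0.983) without them. FGF19ΔKLB against vehicle gave −1.04 (−2.78 to 0.70, adjusted p = 0.794), with 1 library inside the vehicle range. Its partner subunit Slc51a was at 0.0586 to 0.871 CPM in the 9 libraries, with log2 fold changes of −0.28 and −0.62 for FGF19WT and FGF19ΔKLB against vehicle (adjusted p = 0.889 and 0.924). Slc51b overlaps Rasl12 on the other strand by 2140 bases. Whether reads were counted by strand is not given in the sources used here, and Rasl12 stood at 0 to 0.425 CPM.

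Counted over the 8 genes, none passed an adjusted p of 0.05 in edgeR over 9 libraries in any of the 3 comparisons. Among all 18142 genes the share called was 0.11% (20 genes) for FGF19WT against vehicle, 0.011% (2 genes) for FGF19ΔKLB against vehicle and 0% (0 genes) for FGF19ΔKLB against FGF19WT. At an unadjusted p under 0.05 the counts were 3 of 8 (Slc51b, Abcc2, Abcc4), 1 of 8 (Slco1b2) and 3 of 8 (Slco1b2, Abcc2, Abcc4), beside 18.8%, 8.35% and 12.5% of all genes. DESeq2 called 1 of 8, 0 of 8 and 1 of 8, beside 9.61%, 2.04% and 4.6% of all genes, the called gene being Abcc4. Groups without overlap were found in 2, 4 and 3 of the 8 genes, beside 22.6%, 24.6% and 13.5% of all genes. For FGF19ΔKLB against vehicle these 4 were Slc10a1 and Slco1a4, higher, and Slco1b2 and Abcc3, lower.

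The calls changed with the libraries in the model. The comparisons of FGF19WT and of FGF19ΔKLB with vehicle share the vehicle libraries, and their values are not independent. Over the 6 libraries of the 2 groups, FGF19ΔKLB against vehicle called 1 of the 8 genes, Slco1a4, where 1.68% of all genes were called, again 1 of 8 with DESeq2 size factors (1.7%) and 0 of 8 with the replicate number as a block (0.594%). It was also the 1 of 8 called without FGF19WT libraries 2 and 3, beside 1.52% of all genes. In the same 6-library form, 0 of 8 were called for FGF19WT against vehicle (0.00574% of all genes) and for FGF19ΔKLB against FGF19WT (0.00584%). DESeq2 on these 6 called 3 of 8, namely Slco1a4, Slc10a1 (0.57, adjusted p = 0.0436) and Slco1b2 (−0.70, adjusted p = 0.0125), where it called 7.97% of all genes. Leaving out FGF19WT library 1, edgeR called 4 of 8 for FGF19WT against vehicle beside 27.4% of all genes: Slc10a1, Abcc2 (0.81, adjusted p = 0.0193), Abcc3 (−4.61, adjusted p = 0.000208) and Abcc4. For FGF19ΔKLB against FGF19WT it then called these 4 and Slco1b2 (−1.01, adjusted p = 0.0355) beside 20.2% of all genes. Without FGF19WT libraries 2 and 3 it called 0 of 8 against vehicle, beside 0.1% of all genes. At an unadjusted p under 0.05 the count was then 1 of 8, Slco1a4, beside 6.87%. The median log2 fold change of the 8 genes was 0.14, −0.25 and −0.05 in the 3 comparisons, beside −0.0049, 0.0018 and 0.01 over all tested genes.

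**Figure D4:**
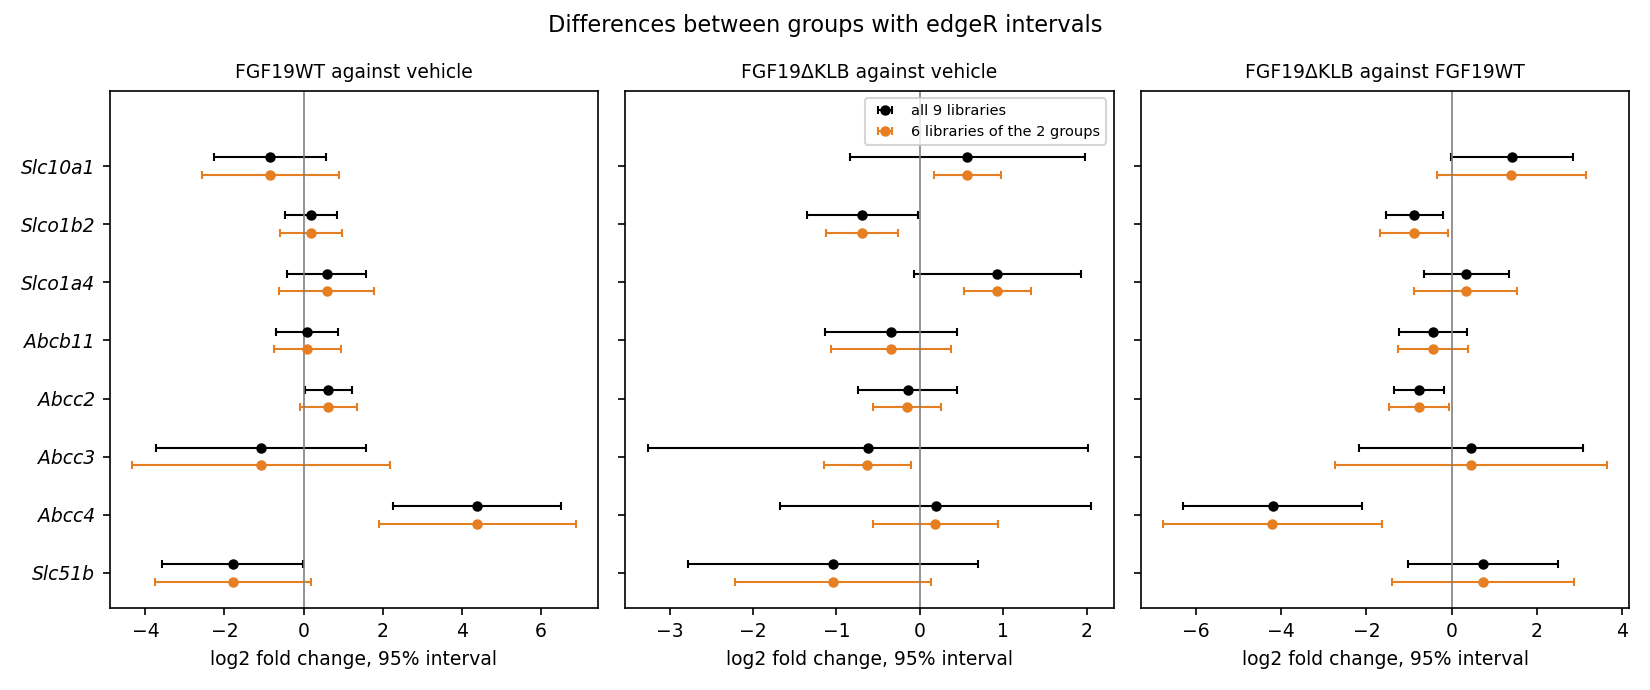
Log2 fold change of each transporter gene with its 95% interval from edgeR in the 3 comparisons, from all 9 libraries (black) and from the 6 libraries of the 2 groups compared (orange). For FGF19ΔKLB against vehicle the 6-library intervals are narrower, 0.52 to 1.33 for Slco1a4. In the 6-library fits, Abcc3 and Abcc4 have wider intervals in the comparisons that include FGF19WT. For Abcc3 the 9-library intervals are of similar width in all 3 comparisons.

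Other genes of bile acid handling were read from lists, none of which held a gene called over 9 libraries. At an unadjusted p under 0.05, for FGF19WT and FGF19ΔKLB against vehicle in turn, 3 and 1 of 18 other transporters, 2 and 4 of 15 canalicular partners and 6 and 8 of 17 synthesis genes passed. The same counts were 3 and 2 of 22 for sensors and regulators, 3 and 4 of 16 for CAR and PXR targets and 7 and 3 of 15 for NRF2 targets, beside 18.8% and 8.35% of all genes. Of 23 further bile acid and organic anion transporters, 18 were tested and 0 were called in any comparison over 9 libraries. Their median log2 fold change was −0.23 for FGF19WT and −0.38 for FGF19ΔKLB against vehicle, with 14 and 12 of 18 below 0, and the first was −0.33 without FGF19WT libraries 2 and 3. Slco2b1, a carrier of organic anions chosen after its values were seen, had 33.5 and 32.2 CPM in FGF19WT 2 and 3 against 164 to 240 CPM in the other 7, below them as Slc10a1 was. Slco1a1, a male-biased carrier in mouse liver, was low throughout at 0.359 to 8.49 CPM.

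The canalicular partners comprised 15 genes, all tested. None was called over 9 libraries. Over the 6 of vehicle and FGF19ΔKLB, where 1.68% of all genes were called, 2 of 15 rose. These were the sterol exporters Abcg5 and Abcg8, by 1.19 (adjusted p = 0.0187) and 0.80 (adjusted p = 0.0275) on the log2 scale. Abcb4, the phospholipid exporter that works beside BSEP, measured 262, 256 and 226 CPM in vehicle, 119, 319 and 237 CPM with FGF19WT and 139, 110 and 180 CPM with FGF19ΔKLB. The FGF19ΔKLB libraries and FGF19WT library 1 lay below all vehicle libraries, and FGF19ΔKLB against vehicle gave −0.80 (SE 0.34, adjusted p = 0.587) over 9 libraries and an adjusted p of 0.0847 over 6. The medians of the list were 0.21 and 0.11 for FGF19WT and FGF19ΔKLB against vehicle, the first 0.13 without FGF19WT libraries 2 and 3.

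Bile acid synthesis genes (17, all tested) had a median of 0.04 with FGF19WT and −0.58 with FGF19ΔKLB against vehicle, the first turning to −0.24 without FGF19WT libraries 2 and 3, and 0 were called over 9 libraries. Over the 6 libraries of vehicle and FGF19ΔKLB, where 1.68% of all genes were called, 3 of 16 fell. These were Cyp7a1, the rate-limiting enzyme, by 3.52 (adjusted p = 0.00606), Cyp7b1 by 1.31 (adjusted p = 0.0147) and Cyp27a1 by 1.25 (adjusted p = 0.0280) on the log2 scale. Cyp7a1 measured 84.9, 103 and 70.1 CPM in vehicle, 3.66, 83.4 and 118 CPM with FGF19WT and 9.49, 7.61 and 5.47 CPM with FGF19ΔKLB. FGF19WT library 1 lay below, and libraries 2 and 3 above, every FGF19ΔKLB library.

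Among 22 tested sensors and regulators 0 were called over 9 or 6 libraries, with medians of −0.16 and 0.06 for FGF19WT and FGF19ΔKLB against vehicle, the first turning to 0.0042 without FGF19WT libraries 2 and 3. Nr1h4, encoding FXR, had 36.2 and 45.8 CPM in FGF19WT 2 and 3 against 123 to 192 CPM in the other 7, and its fitted difference with FGF19WT was −0.97 (SE 0.52, adjusted p = 0.345). Nr0b2, encoding the repressor SHP, measured 34.7, 11.1 and 41.5 CPM in vehicle libraries and 29.5 to 49.3 CPM in the other 6 libraries. Target genes of the xenobiotic receptors CAR and PXR (16) had medians of −0.05 (0.08 without FGF19WT libraries 2 and 3) and −0.16 for FGF19WT and FGF19ΔKLB against vehicle, with 0 called over 9 libraries. Over the 6 of vehicle and FGF19ΔKLB, where 1.68% of all genes were called, 1 of 16 was, Cyp2b10, lower with FGF19ΔKLB (−3.47, adjusted p = 0.0430). NRF2 target genes (15) had medians of 0.75 and −0.21, the first turning to −0.14 without FGF19WT libraries 2 and 3, with 0 called over 9 libraries. Over the same 6 libraries 1 of 15 was called, Ugdh, lower with FGF19ΔKLB (−1.27, adjusted p = 0.0231). The summed level of the NRF2 targets was 1930 and 2328 CPM in FGF19WT libraries 2 and 3, against 881 to 1520 CPM in the other 7.

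Marker lists were read beside the FGF19ΔKLB values too. Over its 6 libraries with vehicle, where 1.68% of all genes were called, 2 of 16 pericentral genes fell. These were Oat by 2.18 (adjusted p = 0.0430) and Slc1a2 by 2.18 (adjusted p = 0.0275), and the list summed to 2655 to 5090 CPM against 6025 to 10423 CPM in vehicle. Of 11 T and NK cell markers 1 fell, Cd8a, by 3.29 (adjusted p = 0.0187), and the list summed to 3.04 to 4.86 CPM against 9.0 to 18.9 CPM. Stellate cell markers summed to 169 to 334 CPM against 426 to 496 CPM, with 0 of 13 called. Sinusoidal endothelial markers summed to 111 to 175 CPM against 195 to 226 CPM, with 0 of 12 called and 12 of 12 fitted below 0. B and plasma cell markers summed to 31.3 to 70.5 CPM against 103 to 246 CPM, with 0 of 9 called. Hepatocyte markers summed to 250518 to 345365 CPM against 138762 to 192764 CPM, with 0 of 13 called. The TMM factors were 0.848 to 0.968 with FGF19ΔKLB and 0.994 to 1.08 in vehicle. The part of these in the values of Slc10a1, Slco1a4, Slco1b2 and Abcc3 was not tested.

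Genes with the most similar pattern were ranked by Pearson r of log2 CPM over the 9 libraries, as a description, with r over the 7 libraries other than FGF19WT 2 and 3 beside it. For Abcc4 these were Mfn1 (r = 0.994, 0.843 over 7), Mrvi1 (0.993, 0.850) and Maoa (0.993, 0.909). For Abcc3 they were Mccc2 (0.994, 0.891), Ehd3 (0.993, 0.896) and Syt3 (0.991, 0.790), and for Slc10a1 Gm15635 (0.993, 0.887), 1300017J02Rik (0.993, 0.953) and Atad3a (0.991, 0.865). All 9 of these values were lower over 7 libraries, in which the most distant pair of libraries is left out. Abcc2 came with H2afz (0.980, 0.962), Aptx (0.978, 0.920) and the glutathione transferase Gstm1 (0.973, 0.891), and Abcb11 with Ccdc138 (0.917, 0.944), the RNA sensor Tlr3 (0.912, 0.910) and 9530085L11Rik (0.906, 0.937). Slco1b2 came with Dynlt1a (0.941, 0.962), Zfand2a (0.938, 0.893) and Lmbrd1 (0.921, 0.846), Slco1a4 with Scrn2 (0.936, 0.959), Serpinb8 (0.920, 0.921) and Meis2 (0.918, 0.860), and Slc51b with Gm42829 (0.947, 0.850), 2310043M15Rik (0.944, 0.809) and Zfp354a (0.940, 0.802). The points share library depth and the 2 libraries that stand apart, and these genes are the top 3 of 18142.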

How the data were processed

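Liver RNA of 9 libraries in 3 groups was analysed from 1 deposited table. Its values are expected counts and FPKM per gene and library, both deposited by the authors, the counts not scaled for library size. Bowtie 0.12.2, HISAT2 2.0 and StringTie 1.3.0 and the build mm8 are named, per the submitters' processing notes, with no role given. Positions in the table match GENCODE M21 on GRCm38 instead, with 28480 of 28517 genes at the same chromosome and start, so GRCm38 coordinates are printed. The groups follow the sample titles. The FGF19ΔKLB columns carry the code F19_HBS, which the sample descriptions tie to those titles and the labels do not explain.

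The test was the quasi-likelihood test of edgeR 4.0.16 (R 4.3.3) on the counts (TMM factors, the default low-count filter, robust fit, group as the only term, 6 residual degrees of freedom), and a gene was called at a Benjamini-Hochberg adjusted p under 0.05 over all 18142 genes. Intervals are 95%. CPM values are TMM-scaled, and log2 CPM has a prior count of 2. Alternatives were no filter, a floor of 5 CPM for 3 libraries, size factors from DESeq2, the Wald test of DESeq2 1.42.0, limma 3.58.1 on log2(FPKM + 1) for genes with 1 FPKM in at least 3 libraries, the 6 libraries of 2 groups, a replicate block, counts divided by 4, and leaving out libraries. The procedure was tested on simulated data, in which the libraries of a group shared 1 mean per gene. Those data did not hold the split of FGF19WT library 1 from libraries 2 and 3.

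The 8 transporters and the gene lists were chosen with earlier results of these data known. Named besides them are Slc51a, Abcb4, Slco1a1, Cyp7a1, Nr1h4 and Nr0b2, up to 4 called members per list and comparison, the 3 genes most similar to each transporter, and overlapping genes. Depth limits Slc51b most.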

Additional observations from a re-analysis of the deposited data

How the results depend on the processing

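Of the 24 fitted differences of the 8 genes, 16 kept their direction in every alternative run, and the other 8 turned in at least 1. Without FGF19WT libraries 2 and 3, FGF19WT against vehicle turned for Abcb11 (−0.27), Slc10a1 (0.30), Slco1b2 (−0.14) and Abcc3 (0.42), and FGF19ΔKLB against FGF19WT for Slco1a4 (−0.32) and Abcc3 (−1.04). Leaving out 1 library, the log2 fold change ran from −0.22 (without FGF19WT 3; −0.15 without vehicle 2) to 0.24 for Abcb11 and from −0.17 (without FGF19WT 2) to 0.35 for Slco1b2 in FGF19WT against vehicle. In FGF19ΔKLB against vehicle it ran from −0.28 to 0.0079 (without vehicle 2; 0.0075 over 6 libraries) for Abcc2 and from −0.048 (without FGF19ΔKLB 1; −0.052 over 6 libraries) to 0.47 for Abcc4. In FGF19ΔKLB against FGF19WT it ran from −0.052 (without FGF19WT 2) to 0.85 for Slco1a4 and from −0.098 (without FGF19WT 3; −0.065 without FGF19WT 2) to 3.98 (without FGF19WT 1) for Abcc3. The cause was not tested.

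For FGF19WT against vehicle the 20 genes called became 1743 with DESeq2 (1 of the 8), 69 with limma, 1 over 6 libraries, and 0 to 5221 leaving out 1 library (0 to 4 of the 8), the highest without FGF19WT 1. For FGF19ΔKLB against vehicle the 2 became 11 with no filter, 13 at 5 CPM, 371 with DESeq2, 51 with limma, 292 over 6 libraries (1 of the 8), 4 with counts divided by 4, 303 without FGF19WT 2 and 3 (1 of the 8) and 0 to 172 leaving out 1 library, the highest without FGF19WT 1. Alternatives chosen after seeing the data, over the 6 libraries, gave 1382 with DESeq2 (3 of the 8), 295 with DESeq2 size factors (1 of the 8), 44, 95 and 84 without vehicle 1, 2 and 3, and 70, 276 and 98 without FGF19ΔKLB 1, 2 and 3 (0 of the 8 each). For FGF19ΔKLB against FGF19WT the 0 became 834 with DESeq2 (1 of the 8), 1 over 6 libraries, 7 without FGF19WT 2 and 3, and 0 to 3846 leaving out 1 (0 to 5 of the 8), the highest without FGF19WT 1. The cause was not tested. The filter at 5 CPM left out Slc51b, and the limma filter Abcc4.

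The replicate number as a block took the genes called from 20 to 1, from 2 to 0 and from 0 to 0 in the 3 comparisons, and over the 6 libraries of vehicle and FGF19ΔKLB from 292 to 103, with 0 of the 8 in each. In the labels these libraries share only a number, and no batch is named. The correlations of same-numbered libraries, taken after subtracting group means, were −0.05 to 0.15, and such values cannot show whether they share a batch. Every library correlated best with its own number only in FGF19ΔKLB against vehicle, at 0.03 to 0.06. Depth limits Slc51b, with 4 to 114 counts per library.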
